A study of Mus musculus with 18 samples.

Results

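Cells that co-express Pou5f1 and Utf1, labelled epiblast-like, were examined in single-cell transcriptomes of whole mouse embryos at embryonic day 8.5. A cell was a member when it carried 1 or more unique molecular identifier (UMI, one captured RNA molecule) of both genes, none of Elf5, Esx1, Dppa3 or Nanos3, and at least 3000 mouse UMIs in total. In all, 803 of 98063 cells that reached 3000 UMIs met this rule, out of 150087 barcodes. Most members of Dnmt1 knockout embryos, and few or none of the other groups, lay in a cluster named epiblast-like. That name rests on a narrow margin, as given below. Because the rule reads measured counts, levels of these 6 genes and any contrast of members with other cells are given as descriptions without a test.

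The embryos carried null alleles of 1 of 3 DNA methyltransferases on a 129S4/SvJae background and came from natural matings of heterozygous parents, as did the wild types (WT). The alleles are absent from the whole embryo, without Cre, so a difference in the members cannot be assigned to these cells alone. Each library is 1 embryo, and after a pair of libraries was merged there were 7 WT, 3 Dnmt1-/- and 4 Dnmt3a-/- libraries, and 3 labelled Dnmt3b KO. Ectoplacental cone tissue was taken for genotyping, which removes part of the trophoblast. DNMT1 copies methylation onto newly replicated DNA, while DNMT3A and DNMT3B add it to unmethylated sites.

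Pou5f1 encodes OCT4, the transcription factor at the centre of the pluripotency network, and Utf1 encodes a chromatin-associated factor of pluripotent and germ cells. The epiblast is the pluripotent layer from which the germ layers arise, and Pou5f1 is silenced from it during early organogenesis, last at the caudal end and in the germ line. Of the exclusion genes, Elf5 and Esx1 mark trophoblast, and Dppa3 and Nanos3 mark primordial germ cells. In the mm10 assembly Pou5f1 lies at chr17:35506018-35510772 on the plus strand and Utf1 at chr7:139943789-139945112, also on the plus strand.

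The median depth of cells that reached 3000 UMIs ranged from 7289 to 59422 UMIs per library. The libraries labelled Dnmt3b KO 1 and 2 shared 12249 barcodes, 86.5% and 79.3% of their own, whereas the next pair of libraries shared 133, so each barcode was used once and the pair counted as 1 embryo. Of its 8298 shared barcodes with at least 6000 UMIs over both copies, 31 had copies within 1.5-fold of each other. Each Dnmt1-/- embryo had lower Dnmt1 levels in members (22.9, 21.4 and 16.7 counts per 1000000 UMIs, CPM) than the WT embryos (122.4 to 127.4 CPM). Members of Dnmt3a-/- embryos 1, 2, 13 and 14 had 6.63, 10.9, 5.27 and 10.3 CPM of Dnmt3a against 21.0 to 29.8 CPM in WT embryos with 10 or more members. Dnmt3b transcript was at 123.8, 114.7 and 111.7 CPM in members of the libraries labelled Dnmt3b KO (1 and 2 combined, 11 and 12), against 128.0 to 161.5 CPM in WT, so these tags do not check that label. Dnmt3a was at 10.6 and 7.23 CPM in members of the libraries labelled Dnmt3b KO 11 and 12, from 12 and 20 UMIs and within the Dnmt3a-/- range. It was at 33 CPM in the combined pair, which had 8 members. In the other cells Dnmt3a was at 15.1 and 7.66 CPM in libraries 11 and 12, at 7.59 to 11.9 CPM in Dnmt3a-/- and at 23.5 to 34.7 CPM in WT embryos, so library 11 lay between the groups. Ahcy, a gene on the chromosome of Dnmt3b, was at 6.18 and 9.04 CPM in members of 11 and 12 and at 13.1 to 20.6 CPM in those of Dnmt3a-/- 1, 2 and 14. The low Dnmt3a counts are not accounted for by the label, so the group is called libraries labelled Dnmt3b KO, and which gene is disrupted in 11 and 12 was not tested.

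Most members came from the smallest group of cells. Dnmt1-/- embryos gave 435 members of 7079 cells, WT embryos 224 of 33478, libraries labelled Dnmt3b KO 107 of 25792 and Dnmt3a-/- embryos 37 of 31714. Members made up 6.93% of the cells of Dnmt1-/- embryo 1 (95% exact binomial interval 5.70 to 8.33%), 3.78% of embryo 2 (3.14 to 4.51%) and 8.67% of embryo 3 (7.59 to 9.86%). The 7 WT embryos ranged from 0.0357% in WT 1 through a median of 0.629% to 2.87% in WT 7. All 3 Dnmt1-/- embryos lay above all 7 WT embryos. Sex moved with genotype in part: Y-linked genes were at 100.8 to 109.1 CPM in Dnmt1-/- and 92.3 to 111.9 CPM in Dnmt3a-/- embryos. Among WT embryos they were at 91.8 CPM in WT 2 and at most 0.140 CPM in the others. The part of sex in the shares was not tested.

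**Figure D1:**
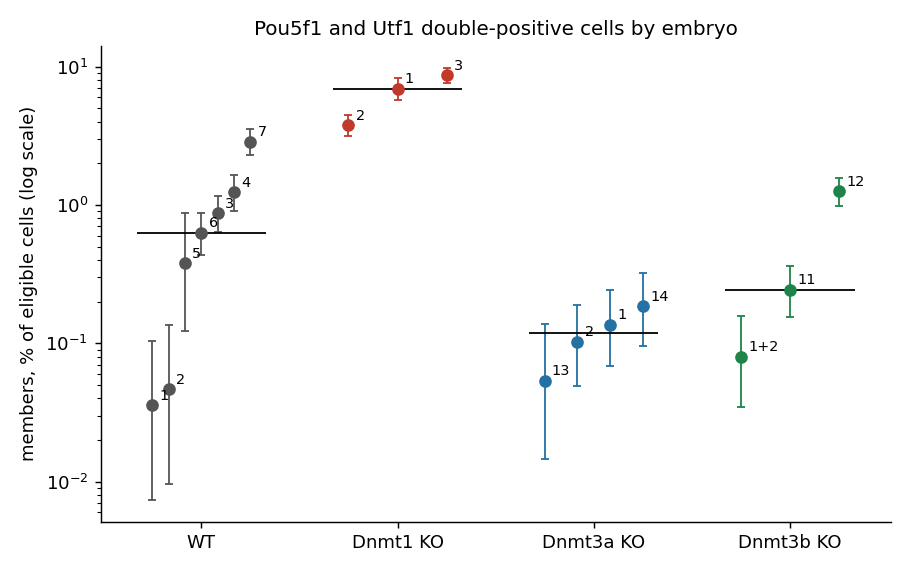
Share of cells with at least 3000 mouse UMIs that were members (percent, log axis), with 1 point per embryo grouped by genotype (KO stands for -/-), exact binomial 95% intervals that cover counting error only, and lines at the group medians. The 3 Dnmt1-/- embryos sit between 3.78 and 8.67%, above the 7 WT embryos at 0.0357 to 2.87%, and the Dnmt3a-/- embryos sit between 0.0537 and 0.185%.

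The mean share was 6.46% ± 2.48 (SD, n = 3) in Dnmt1-/- and 0.868% ± 0.984 (SD, n = 7) in WT embryos, of which WT 7 carried much (0.534% ± 0.475, SD, n = 6, without it). On the log2 scale, with 0.5 cells added to members and to all cells, the difference was 3.90, which is 15.0-fold (two-sided exact permutation test over 120 reassignments, p = 0.0333, Benjamini-Hochberg adjusted p = 0.1 over 3 knockouts). This adjusted p missed the threshold of 0.05 and ranged from 0.025 to 0.167 over the alternative settings, while the sign held in all 20 of them. WT embryos spread widely, and the smallest p that this design allows is 0.00833. The share is built from counts of the rule genes, and the study had named Pou5f1 and Utf1 as higher in Dnmt1-/- embryos. These p-values, and those of the other knockouts below, therefore only rank the difference among reassignments of embryos and give no independent support. When every cell was thinned to 3000 UMIs the expected shares were 0.252, 0.264 and 0.754% in Dnmt1-/- and 0.0007 to 0.0428% in WT embryos. The WT values correspond to 0.045 to 1.30 expected cells per embryo, so no change is read from the thinned level.

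The shares in Dnmt3a-/- embryos and in libraries labelled Dnmt3b KO overlapped those of WT. Members were 0.136, 0.103, 0.0537 and 0.185% of cells in Dnmt3a-/- embryos 1, 2, 13 and 14, which all fell within the WT range. In the libraries labelled Dnmt3b KO they were 0.0802% in the combined pair, 0.244% in 11 and 1.26% in 12. The Dnmt3a-/- difference from WT was -1.82 log2 (exact permutation p = 0.161, adjusted p = 0.241) and the difference of the libraries labelled Dnmt3b KO was -0.45 log2 (exact permutation p = 0.758, adjusted p = 0.758). The latter became 0.018 without WT 7, 0.45 without the combined pair and -1.49 without 12. Embryos with the same label number were not taken as pairs, and a fit with such pairs gave a Dnmt3a-/- difference of the other sign (1.38). The files of WT 1, Dnmt3a-/- 1 and 13 and Dnmt3b KO 11 also list human genes, and without these 4 libraries the differences were 3.35, -2.05 and -0.87 log2 for Dnmt1-/-, Dnmt3a-/- and libraries labelled Dnmt3b KO.

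Double detection was rare in cells that should lack both genes. Among cells with 10% or more of their UMIs from globin genes, as in red blood cells, Pou5f1 was seen in 26 of 3045 WT, 33 of 2436 Dnmt3a-/- and 25 of 1575 cells of libraries labelled Dnmt3b KO. Utf1 was seen in 3, 2 and 5 of these cells, and 1 cell, of the library labelled Dnmt3b KO 12, was a member. A count of 0 members allows a share of up to 0.0985% of the WT and 0.123% of the Dnmt3a-/- globin-rich cells. Dnmt1-/- embryos held 7 such cells, too few for this comparison. Globin-rich cells made up 0.032 to 0.198% of the cells of Dnmt1-/- embryos and 0.693 to 18.3% of those of WT embryos. Embryo stage was not measured here, and its part in these values and in the shares of members was not tested. These pooled cells came mostly from a few embryos, with 1540 and 1076 of the WT cells in WT 1 and WT 2. Within single libraries the limits were 0.195 to 14.3% in WT and 0.304 to 1.28% in Dnmt3a-/- embryos, above the share of members of every one of these embryos. They also lay above the shares of the combined pair and of Dnmt3b KO 11 (0.363 and 0.865%), so these cells do not separate membership from background in those libraries.

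Members of Dnmt1-/- embryos carried more Pou5f1 per cell than the rule asks for. The median was 9, 5 and 8 Pou5f1 UMIs per member in Dnmt1-/- embryos 1, 2 and 3, with a maximum of 39. In WT embryos the medians ran from 1 to 3 with a maximum of 15, and each Dnmt3a-/- library and each library labelled Dnmt3b KO had a median of 1. Utf1 had a median of 1 UMI in every group.

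Members at the detection limit were common outside Dnmt1-/- embryos. Exactly 1 UMI of both genes was found in 24 of 37 Dnmt3a-/- members (64.9%), 53 of 107 members of libraries labelled Dnmt3b KO (49.5%), 67 of 224 WT members (29.9%) and 24 of 435 Dnmt1-/- members (5.52%). At least 2 UMIs of both genes were found in 198 Dnmt1-/-, 29 WT, 6 Dnmt3b KO-labelled and 1 Dnmt3a-/- members. Of these, 19 of the 29 were from WT 7 and 117 of the 198 from Dnmt1-/- embryo 3, without which 10 of 137 WT members (7.30%) and 81 of 223 Dnmt1-/- members (36.3%) remained. Median depth per member was 55202 UMIs in Dnmt1-/-, 59289 in WT, 45273 in Dnmt3a-/- and 31925 in libraries labelled Dnmt3b KO. At the depth threshold, 3 members had under 4000 UMIs, and 4 double-positive cells with 2000 or more UMIs fell short of 3000. All of these cells were in Dnmt1-/- embryo 3. A doublet score marked 20 Dnmt1-/- members (4.60%), 6 WT (2.68%), 5 Dnmt3a-/- (13.5%) and 19 Dnmt3b KO-labelled members (17.8%). Of the last, 14 were among the 75 members of Dnmt3b KO 12. The share marked was set to rise with the barcodes of a library, and the share over all cells is not given here. These percentages are therefore not compared between genotypes. Marked cells were kept, and without them the Dnmt1-/- difference in share was 3.97 log2.

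**Figure D2:**
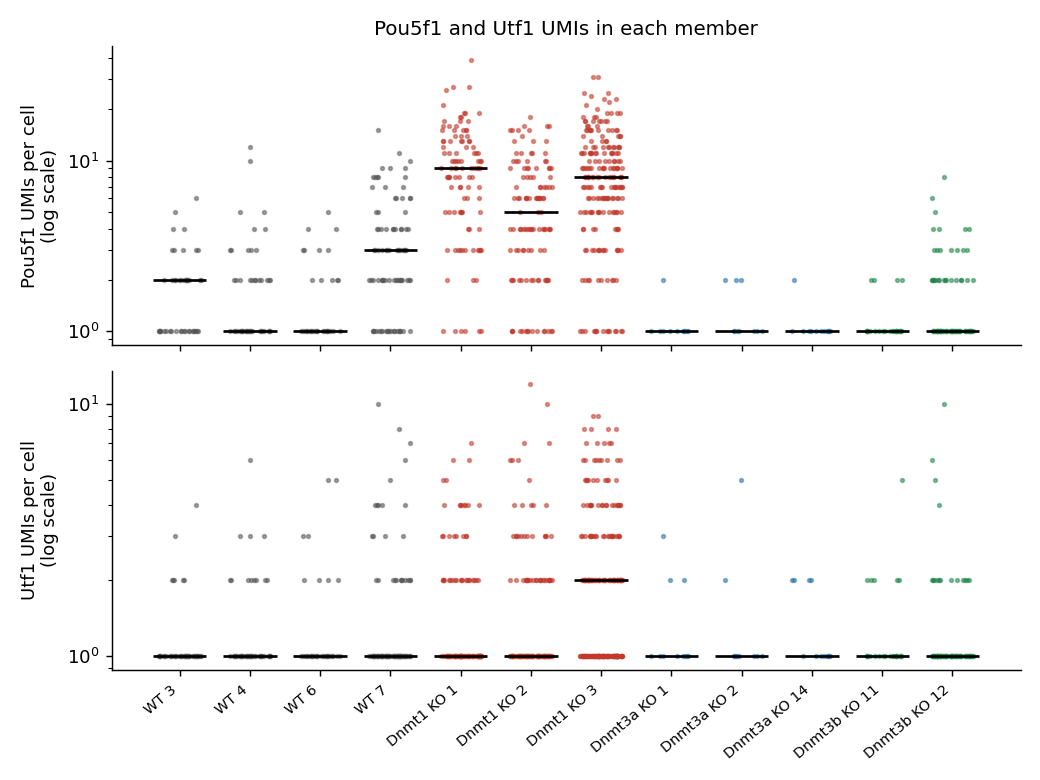
UMIs of Pou5f1 (top) and of Utf1 (bottom) in each member (points, log axes) for embryos with 10 or more members, where lines mark the median of an embryo and KO stands for -/-. Pou5f1 has medians of 9, 5 and 8 UMIs in the Dnmt1-/- embryos and at most 3 in the others, whereas Utf1 has a median of 1 in all embryos shown but Dnmt1-/- 3, where it is 2.

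The exclusion genes removed double-positive cells in every genotype. In Dnmt1-/- embryos 259 of 694 double-positive cells were dropped, of which 113 lay in trophoblast-like clusters and 112 in the epiblast-like cluster described next. In WT embryos 127 of 351 were dropped, 75 of them in surface ectoderm-like clusters and 13 in the epiblast-like cluster. Utf1, with or without Pou5f1, was detected in Dnmt1-/- embryos in 17.1, 37.2 and 16.5% of cells, compared with 2.80 to 6.80% in WT. Cells with Utf1 and no Pou5f1 were 5.94, 29.5 and 4.91% in Dnmt1-/- and 2.10 to 2.88% in WT embryos. Trophoblast-like cells moved with this: they made up 5.08, 31.3 and 4.79% of the cells of Dnmt1-/- embryos 1, 2 and 3, with Utf1 in 96.1, 91.8 and 83.8% of them. WT embryos held such cells in WT 2 (83 cells, 79.5% with Utf1) and WT 7 (1 cell), and their part in the Utf1 shares was not tested. Pou5f1, with or without Utf1, was detected in 38.2, 22.2 and 35.7% of Dnmt1-/- cells, which overlapped the WT range of 1.78 to 46.6%.

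Most members of Dnmt1-/- embryos, and few or none of the other genotypes, lay in an epiblast-like cluster. Cells of all libraries were clustered and named from fixed marker lists that left out the 6 rule genes. A single epiblast-like cluster, named from primed pluripotency markers such as Slc7a3 and Pim2, held 339 of 435 Dnmt1-/- members (77.9%, and 75.9 to 81.9% per embryo). Surface ectoderm was the next closest marker list for this cluster, with a mean log2 marker difference of 1.01 against 1.15. Its leading genes also included Wnt8a, Cdx1 and Stmn2. In its Dnmt1-/- members Slc7a3 and Pim2 were at 41.7 and 87.8 CPM, but Tdgf1, Nodal and Fgf4 of the same list at 0.13, 0.058 and 1.56 CPM. The study had already named Slc7a3 and Pim2 as higher in Dnmt1-/- embryos. The cluster held 0 of 224 WT members, 87 of them from WT 7, and 0 of 37 Dnmt3a-/- members. It also held 7 of 107 members of libraries labelled Dnmt3b KO, all from Dnmt3b KO 12. The zeros follow in part from the rule. The cluster had 24 WT and 16 Dnmt3a-/- cells, among which 13 WT and 6 Dnmt3a-/- double-positive cells carried an exclusion gene. In WT 7 all of its 7 cells in the cluster had Pou5f1 and 85.7% had Utf1. Of the reference cells that defined the cluster 95.4% were from Dnmt1-/- embryos, so a cell state and a genotype effect on expression cannot be told apart in it.

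The summed primed pluripotency list, which omits the rule genes, was higher in members than in the other cells of the same embryo in all genotypes, in embryos with 10 or more members. It was at 948 to 1275 CPM in WT members and 612 to 710 CPM in other WT cells, and at 1358 to 1541 and 623 to 818 CPM in Dnmt1-/- embryos. In Dnmt3a-/- embryos the values were 694 to 991 and 492 to 585 CPM, and in libraries labelled Dnmt3b KO 798 to 1035 and 461 to 516 CPM. This was not particular to the primed list. The surface ectoderm, posterior neural, primordial germ cell and methylation machinery lists were also higher in members in each of these embryos. In WT the surface ectoderm list was at 116 to 454 CPM in members and 46.9 to 67.9 CPM in other cells.

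WT members were spread over ectodermal and caudal clusters. Surface ectoderm-like clusters held 76 of 224 (33.9%), posterior neural-like clusters 37 (16.5%), anterior neural-like clusters 35 (15.6%) and caudal epiblast and neuromesodermal progenitor-like clusters 31 (13.8%). These pooled shares weigh WT 7 most, which held 20 of the 35 anterior neural-like members. In WT 3, 4, 6 and 7 the shares were 21.7 to 48.9%, 12.1 to 19.5%, 4.26 to 23.0% and 11.5 to 19.6%, so the last 3 classes have no fixed order. The same surface ectoderm-like class held 14 of 37 Dnmt3a-/- members (37.8%) and 50 of 107 members of libraries labelled Dnmt3b KO (46.7%). In WT embryos Pou5f1 was detected in 8 to 93.7% of caudal epiblast-like cells and Utf1 in 8.06 to 31.9% of surface ectoderm-like cells. In erythroid-like WT cells Pou5f1 was detected in 0.611 to 7.44% and Utf1 in at most 0.382%.

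**Figure D3:**
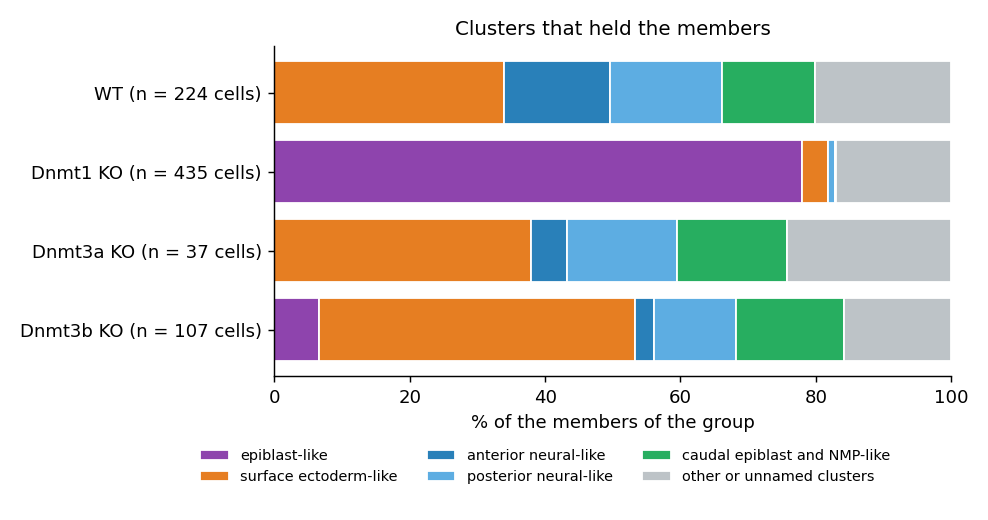
Percent of the members of each genotype in each cell class (stacked bars), with classes named from fixed markers that exclude the 6 rule genes. The epiblast-like class holds 77.9% of Dnmt1-/- members and 0 of the WT and Dnmt3a-/- members, whose largest class is surface ectoderm-like at 33.9 and 37.8%.

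Within the epiblast-like cluster the rule split cells mainly by Utf1. Members were 86 of 246, 92 of 283 and 161 of 311 cells of the cluster in Dnmt1-/- embryos 1, 2 and 3 (35, 32.5 and 51.8%). Of the remaining cells, 88.0 to 93.1% carried Pou5f1 and 20.4 to 26.7% carried Utf1. Pou5f1 was at 148.5, 158.7 and 150.6 CPM in the members and at 134.2, 161.2 and 148.5 CPM in the other cells of the cluster. Exclusion genes were present in 71, 62 and 56 of these other cells, mostly Dppa3 or Nanos3 (65, 56 and 48 cells). Members of the cluster averaged 66.4 CPM of Otx2, an anterior epiblast and forebrain factor, against 38.5 CPM in its other cells, but the per-embryo log2 ratio ran from 0.0033 to 1.18, near 0 in 1 embryo. Wnt6, a ligand of surface ectoderm, averaged 12.5 against 38.4 CPM, and T, the brachyury factor of the primitive streak, 18.6 against 32.7 CPM (n = 3 embryos), with ratios of -1.60 to -0.96 and of -0.78 to -0.60 log2. Over the lists, 7 of 9 surface ectoderm and 7 of 11 caudal epiblast genes were lower in members in all 3 embryos. In the surface ectoderm list Dlx6 was higher in all 3 (0.14 to 0.31), and among the caudal genes Nkx1-2, Wnt8a, Cyp26a1 and Sp5 varied in sign. Of 18 primed pluripotency genes 9 were higher and 2 lower in all 3 embryos, some by little, such as Lin28a (0.033 to 0.10) and Nodal (-0.044 to -0.0032). The rule itself split these cells, and the share of all genes with the same sign in all 3 embryos is not given here. These counts are therefore descriptions and are not read as a result about the lists.

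Dnmt1-/- members held cells with anterior and cells with caudal transcripts. A grouping chosen after these values were seen called a cell anterior with 3 or more UMIs summed over Otx2, Hesx1 and Six3, and caudal with 3 or more over T, Cdx1 and Cdx2. In the epiblast-like cluster 34.9, 35.9 and 60.3% of members of Dnmt1-/- embryos 1, 2 and 3 were anterior only. In the same embryos 31.4, 40.2 and 19.3% were caudal only, and 1.16, 1.09 and 4.35% were both. Embryos 1 and 2 had similar shares of the 2 kinds, whereas anterior cells outnumbered caudal cells in embryo 3.

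Among all members of WT embryos 3, 4, 6 and 7, 26.1, 12.8, 21.2 and 36.8% were anterior only and 37.0, 42.6, 27.3 and 33.3% were caudal only. Over all Dnmt1-/- members the anterior shares were 31.4, 30.5 and 50.9%, which overlapped the WT range. In the library labelled Dnmt3b KO 12, 10.7% of members were anterior only and 50.7% caudal only. Nanog, a pluripotency homeobox factor, was detected in 40.0, 23.7 and 39.6% of Dnmt1-/- members. It was detected in 4.35, 4.26, 3.03 and 10.3% of members of the same 4 WT embryos, which did not overlap, and in 2.67% of those of Dnmt3b KO 12.

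**Figure D4:**
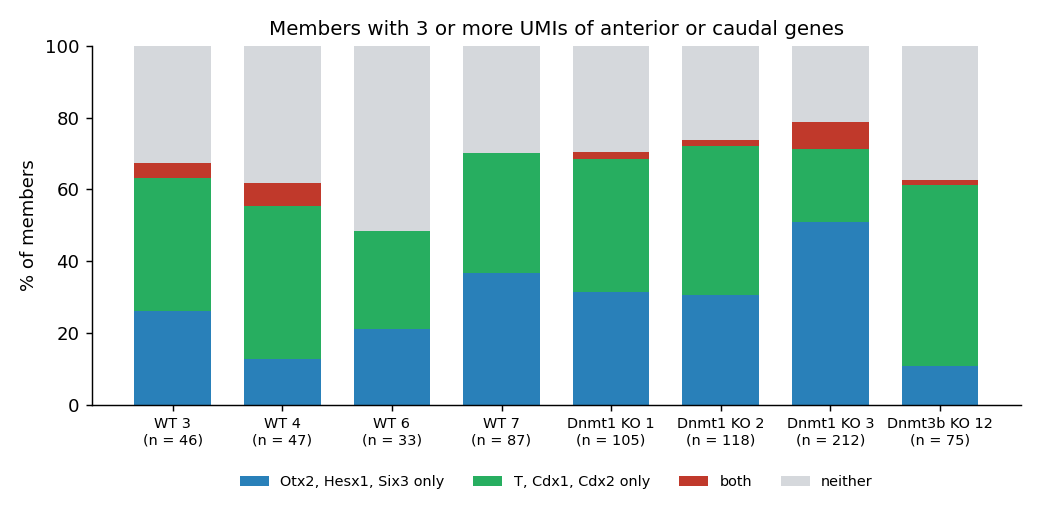
Percent of members per embryo with anterior transcripts only (3 or more UMIs over Otx2, Hesx1 and Six3), caudal transcripts only (3 or more over T, Cdx1 and Cdx2), both or neither. Cells with both make up at most 7.55% of members in any embryo shown, and anterior cells reach 50.9% in Dnmt1-/- embryo 3.

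Members were compared with the other cells of their embryo in WT and Dnmt1-/- embryos by the 12 genes of largest median log2 ratio. Both levels had 5 CPM added. Only genes with a mean of 20 CPM or more in members were ranked, and the rule genes were left out. In WT the leading genes included Six3 (107 CPM in members against 16.7 in other cells) and Hesx1, forebrain factors, and Wnt6 (102 against 21.9 CPM), Tfap2a and Dlx5 of the surface ectoderm. WT 4 was an exception for Six3, with 11.3 CPM in members, and for Hesx1, with 11.6 CPM in members and 12.5 in other cells. Of the other leading WT genes, Otx2 and Irs4 also turned in sign, with lowest per-embryo log2 ratios of -0.16 and -0.42. In Dnmt1-/- embryos they included Stmn2, a microtubule regulator (166 against 24.6 CPM), the kinase gene Pim2 (73.0 against 8.30 CPM), Otx2 (55.2 against 6.64 CPM) and Sox2, an epiblast and neural factor (71.2 against 9.57 CPM). Hesx1, Six3 and Otx2 were in the 12 leading genes of both genotypes, and the difference between the lists was not tested.

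To compare expression between genotypes, UMI counts were summed over the members of each embryo with 10 or more of them and tested with edgeR's quasi-likelihood test at a 1% false discovery rate and an absolute log2 fold change of 1. WT 3, 4, 6 and 7, Dnmt1-/- 1 to 3 and Dnmt3a-/- 1, 2 and 14 entered the comparison, together with Dnmt3b KO 11 and 12 for the spread. In Dnmt1-/- members 240 of 11354 genes were higher (2.11%) and 118 lower (1.04%), 358 in all (3.15%). Fewer were called without Dnmt1-/- 2 (238) or without Dnmt1-/- 3 (219), and 72 when all sums were thinned to the smallest. The 3 Dnmt1-/- embryos lay all above or all below the 4 WT embryos for 3259 of the tested genes (28.7%), so separation of a named gene is read beside its test. A comparison of these sums mixes genotype with cell class, since 77.9% of Dnmt1-/- members and no WT members lay in the epiblast-like cluster, and the 2 cannot be told apart.

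Sex also moved with genotype in this comparison. The 4 Y-linked genes summed to 0 CPM in members of the 4 WT embryos and to 108.9 to 120.7 CPM in those of the 3 Dnmt1-/- embryos. Xist, the RNA of the inactive X, was at 577 to 714 CPM in the former and at 0.921 to 3.69 CPM in the latter. Of the 240 higher genes 35 were X-linked (14.6%), of the 118 lower genes 0, and of all tested genes 422 (3.72%). With the presence of Y-linked counts as a covariate 82 genes were called, 76 of them among the 358. Within a group only the libraries labelled Dnmt3b KO 11 (with such counts) and 12 (without) differed in it. The covariate therefore rests on these libraries, and the fit does not separate sex from genotype.

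The called genes were also followed in the other cells, which share embryo, sex and free RNA with the members. In the remaining cells of the same embryos 222 of the 240 higher genes were also higher and 112 of the 118 lower genes also lower. Over all tested genes the direction was the same for 3041 of 5647 genes with a higher value in Dnmt1-/- members (53.9%) and 4660 of 5707 with a lower value (81.7%). There 133 of the higher and 70 of the lower genes differed by at least 1 on the log2 scale with 1 CPM added, against 206 of the 5647 and 414 of the 5707. The median differences of the called genes were 1.19 in the remaining cells and 1.97 in members for the higher genes, and -1.19 and -1.60 for the lower genes.

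Germline genes were the list with the most calls in Dnmt1-/- members. Of 14 tested 12 were higher, with a median of 7.27 log2, or 5.45 with the 6 genes that had no WT UMI set to their lower bound. The median of all genes was -0.002. The study had already reported germline genes as higher in Dnmt1-/- embryos, so this count is no independent result. The list was not higher in members than elsewhere in these embryos: it summed to 304.6 to 318.7 CPM in members and to 376 to 391 CPM in the other cells. Fkbp6, an immunophilin of meiosis and the piRNA pathway at chr5:135291704-135350044, was at 0, 0.314, 0 and 0.330 CPM in WT 3, 4, 6 and 7 and at 29.8, 35.1 and 31.2 CPM in Dnmt1-/- embryos. Its WT members held 3 UMIs in all, and the pooled ratio was 155 (95% counting interval 52.8 to 752, edgeR adjusted p = 7.7e-09). In the other cells of the Dnmt1-/- embryos Fkbp6 was at 52.2, 64.3 and 39.6 CPM.

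Slc25a31, the testis ADP/ATP carrier, had 2 WT UMIs and was at 17.7, 14.8 and 15.9 CPM in Dnmt1-/- embryos, a pooled ratio of 119 (32.8 to 987). Asz1, a piRNA pathway gene, had 1 WT UMI and a pooled ratio of 216 (38.6 to 8552). The groups did not overlap for any of these genes. Several germline genes had no UMI in WT members, so their folds are lower bounds against 3 counts over the WT group. Dazl, an RNA-binding protein of germ cells, was at least 77.2-fold higher, the testis tubulin gene Tuba3a at least 61.8-fold, the synaptonemal gene Sycp1 at least 56.1-fold and the meiotic gene Hormad1 at least 33.9-fold higher. Mov10l1, a piRNA helicase, was at least 31.8-fold higher, and Stk31 rose from no UMI in WT to 3.40 to 4.25 CPM. These bounds depend on the WT total, and without WT 7 they were 45.3 for Dazl, 36.3 for Tuba3a, 33 for Sycp1, 19.9 for Hormad1 and 18.7 for Mov10l1. Without WT 7 the ratio was 273 for Fkbp6 and 69.99 for Slc25a31, and Asz1 had no WT UMI left. The Slc25a31 ratio was 187 without WT 4 and 207 without WT 6.

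Rpl39l, a ribosomal protein gene of the male germ line, was at 0.846, 0.314, 1.05 and 0.330 CPM in WT 3, 4, 6 and 7 and at 120.6, 139.8 and 158.5 CPM in Dnmt1-/- embryos (log2 8.05, SE 0.47, edgeR adjusted p = 5.5e-07). Rpl39l and Tuba3a have close paralogs that can share reads, so their values are uncertain. Mael was at 17.5 (2.93 to 712) as a pooled ratio and Zcwpw1 at 0.60 log2, and neither passed the test.

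Other genes with the smallest p-values lay partly outside the germline list. Noct, which encodes the phosphatase nocturnin, was at 11.3, 14.7, 17.8 and 18.6 CPM in WT and 58.3, 64.8 and 50.2 CPM in Dnmt1-/- members (log2 2.01, SE 0.15, edgeR adjusted p = 1.5e-07). Cox6b2, a testis subunit of cytochrome c oxidase, rose from 11.7 to 56.1 CPM (log2 2.42). Xlr4b, an X-linked gene of a multicopy family whose members can share reads, rose from 0.684 to 15.5 CPM (log2 4.70). The Dnmt1-/- embryos were above all 4 WT embryos for all 3 genes, and Noct was not called with the Y-linked covariate.

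Imprinted genes, which are expressed from 1 parental allele, changed in both directions. Of 24 tested 3 were higher and 4 lower, and their median was 0.52. Grb10, an adaptor of insulin and growth factor receptors at chr11:11930508-12038683, was at 176.5, 259.7, 221.8 and 175.0 CPM in WT and at 2.20, 2.40 and 2.90 CPM in Dnmt1-/- members. It fell by 6.18 on the log2 scale (SE 0.24, edgeR adjusted p = 1.1e-11), and its p was the smallest among the lower genes. The gene model Gm21887, on the X chromosome, had the smallest p among the higher genes (1.70 ± 1.17 CPM in WT and 129 ± 14.1 CPM in Dnmt1-/- members, SD, n = 4 and 3). Cdkn1c, a cyclin-dependent kinase inhibitor, was at 96.2, 71.2, 114.8 and 48.0 CPM in WT and at 4.77, 4.80 and 4.67 CPM in Dnmt1-/- members (log2 -3.95, SE 0.30).

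The growth factor gene Igf2 (log2 -5.14) and the gene of its scavenger receptor Igf2r (-1.65) were also lower. Plagl1, a zinc finger factor, was higher by 1.58, Usp29 by 1.19 and Impact, a translation regulator, by 1.11. Peg3 (1.16, edgeR adjusted p = 0.025), Meg3 (0.95, adjusted p = 0.028) and H19 (0.75, adjusted p = 0.27) did not pass the test.

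Primed pluripotency genes were higher in part. Of 15 tested 5 rose, none fell, and the median was 1.08. The study of these data had already named Slc7a3, Fgf5 and Pim2 as higher in Dnmt1-/- embryos, so this count is no independent result. Slc7a3, a cationic amino acid transporter, was at 3.67, 8.16, 4.72 and 11.4 CPM in WT 3, 4, 6 and 7 and 32.4, 27.9 and 41.2 CPM in Dnmt1-/- members (log2 2.33, SE 0.31, edgeR adjusted p = 0.00016). Nanog was at 0.564, 0.627, 0.524 and 2.31 CPM in WT and 7.83, 5.91 and 9.28 CPM in Dnmt1-/- members (log2 2.79, SE 0.44). Neither gene overlapped between the groups.

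L1td1, an RNA-binding protein of stem cells (log2 1.55), the E-cadherin gene Cdh1 (1.21) and Dnmt3b itself (1.08) also rose. Pim2 (1.78, edgeR adjusted p = 0.079) and Fgf5 (2.03, adjusted p = 0.065) missed the threshold of 0.01. The stem cell RNA-binding gene Lin28a (0.24), the zinc finger gene Sall4 (0.27), Otx2 (0.47) and Sox2 (-0.77) did not pass the test either. Of 5 naive pluripotency genes tested, Dppa5a (3.56), Klf2 (2.34) and Klf5 (1.58) rose and none fell. The naive list summed to less in members than in the other cells of their embryo in every genotype, 60.5 to 75.5 against 96.7 to 159 CPM in Dnmt1-/- embryos, whereas the primed list summed to more in members.

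**Figure D5:**
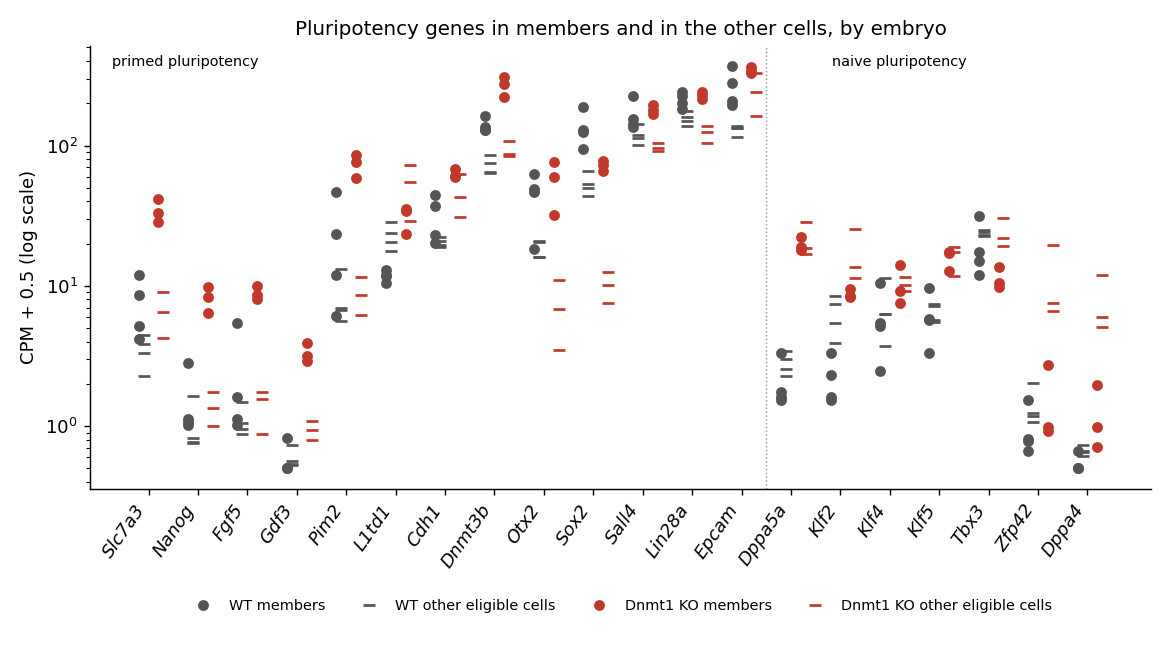
Levels of pluripotency genes in members (points) and in the other cells (dashes) of each WT and Dnmt1-/- (KO) embryo with 10 or more members, in CPM with 0.5 added on a log axis. Slc7a3 and Nanog separate the Dnmt1-/- embryos (27.9 to 41.2 and 5.91 to 9.28 CPM) from the WT embryos (3.67 to 11.4 and 0.524 to 2.31 CPM), whereas Otx2 overlaps.

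Caudal and trunk genes were called in part. Of 11 caudal epiblast genes 3 fell and none rose, namely the signalling genes Fgf8 (log2 -1.90), Fgf17 (-1.50) and Wnt3a (-1.50). T (-0.18), Cdx2 (0.18) and Cdx1 (0.77) did not pass the test, and the list's median was -0.18. Fgf8 was at 97.0, 93.5, 102.8 and 88.5 CPM in WT and 29.6, 28.1 and 13.9 CPM in Dnmt1-/- members, without overlap. Of 4 posterior Hox genes, which pattern the trunk and tail, Hoxa9 (-4.30), Hoxc8 (-4.06) and Hoxc9 (-2.83) fell. Hoxb9 (-1.71, edgeR adjusted p = 0.014) did not pass. The study of these data had already named these 4 genes as lower in Dnmt1-/- embryos, so their count is no independent result.

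Of 10 anterior neural genes 3 fell, among them the forebrain factors Fezf1 (log2 -4.70) and Emx2 (-2.71), and the median was -2.80. The summed list overlapped, at 51.8 to 486.5 CPM in WT and 59.8 to 84.3 CPM in Dnmt1-/- members, since WT 4 lay apart from the other WT embryos and had 2 of its 47 members in anterior neural-like clusters. Fezf1 was at 3.45 CPM in WT 4 and at 12.6 to 22.7 CPM in WT 3, 6 and 7, against 0.212 to 0.923 CPM in Dnmt1-/- members. Six3 (-2.05) and Hesx1 (-1.07) did not pass. In the surface ectoderm list Trp63 (-3.70), the epidermal p63 factor, and Grhl3 (-2.14) fell among 9 tested. These WT levels come from members that lay in neural-like and surface ectoderm-like clusters, and the part of that composition in the lower values was not tested. Mesp1, a factor of nascent mesoderm, rose (2.50), as 1 of 7 primitive streak genes. An unnamed cluster with Mesp1 as a leading gene held 28 Dnmt1-/- members and 0 WT members, and its part in this value was not tested.

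Among lower genes outside the lists, Khdrbs3, an RNA-binding protein gene, was at 52.5, 52.1, 75.0 and 67.7 CPM in WT and at 11.7, 11.3 and 11.8 CPM in Dnmt1-/- members (log2 -2.26). Csnk2a2, a catalytic subunit of casein kinase 2, was 1.80 lower, Brd1, a chromatin scaffold, 1.46 lower, and Purb 1.40 lower on the log2 scale. For each of them the Dnmt1-/- embryos lay below all 4 WT embryos. Hoxb5os (-3.14), antisense to Hoxb genes, is uncertain because strand use in counting is not given in the sources used here.

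Markers of other cell types were measured beside these changes. Of 11 trophoblast genes the hormone gene Sct (log2 2.10) and Tex19.1 (6.15), which also acts in the germ line, rose, and the median was 2.10. The summed trophoblast list was at 158.7 to 366.7 CPM in Dnmt1-/- members and 58.1 to 128.4 CPM in WT members, below the 780 to 1870 CPM of the other Dnmt1-/- cells, and Elf5 and Esx1 were at 0 by the rule. Of 5 primordial germ cell genes Dnd1 (2.01) and Ifitm3 (1.19) rose, while Dppa3 and Nanos3 were at 0 by the rule. Of 6 cardiomyocyte genes Tnni1, a troponin gene, rose (log2 3.70, edgeR adjusted p = 0.0018), and the median was 3.24. The summed cardiomyocyte list was at 48.2 to 236.6 CPM in Dnmt1-/- and 19.7 to 49.8 CPM in WT members, below the 113 to 403 CPM of the other Dnmt1-/- cells, and 16 Dnmt1-/- members lay in the cardiomyocyte-like cluster. Globin genes summed to 20.7 to 177 CPM in Dnmt1-/- and 54.6 to 3104 CPM in WT members, and none of 6 was called. None of 20 housekeeping genes was called, with a median of 0.19. The part of other cells, or of their free RNA, in these values was not tested.

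In Dnmt3a-/- members edgeR called 0 of 11354 genes (0%), with 1058 at an unadjusted p under 0.05, while DESeq2 called 17. These members numbered 11, 10 and 12 per embryo. Dnmt3a itself was at 25.4, 23.2, 21.0 and 29.8 CPM in WT and 6.63, 10.9 and 10.3 CPM in Dnmt3a-/- members, without overlap (log2 -1.48, SE 0.28, edgeR adjusted p = 0.15). The multicopy gene Xlr3b was at 15.5, 30.6 and 16.3 CPM against 3.14 to 6.59 CPM in WT (log2 2.01, edgeR adjusted p = 0.15). For both genes every Dnmt3a-/- embryo lay outside the WT range, yet neither passed the test. Such separation was not particular to them, since 865 of the 11354 tested genes (7.62%) had all 3 Dnmt3a-/- embryos above or all below the 4 WT embryos. Sex moved with genotype here as well, with a Y-linked sum of 108.3 to 110.5 CPM and no Xist in Dnmt3a-/- members, so sex and genotype cannot be told apart for the X-linked Xlr3b.

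Only 2 libraries labelled Dnmt3b KO had 10 or more members, so these were tested over embryos with 5 or more. This added WT 5 and the combined pair, with 5 and 8 members, whose levels of single genes rest on few UMIs. The groups did not overlap for 854 of 10681 tested genes. Of these 10681, 54 were higher (0.506%) and 4 lower (0.0374%), 58 in all (0.543%). The count rested in part on Dnmt3b KO 12, without which 28 genes were called, 21 of them among the 58. Sex was mixed among the knockout embryos, with Y-linked counts in 2 of the 3.

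Germline genes led these calls as well, with 10 of 12 tested higher and a median of 7.04 log2 (5.20 with 5 genes at their bound). The list was not higher in members than in the other cells of libraries 11 and 12. It summed to 151.8 to 336.9 CPM in members and to 180.6 to 546.6 CPM in the other cells. The WT embryos are shared with the Dnmt1-/- comparison. Slc25a31 was at 20.6, 23.8 and 30.4 CPM in the combined pair and libraries 11 and 12, a pooled ratio to WT of 209 (56.5 to 1745). Dazl was at 4.13 (from few UMIs), 24.7 and 78.4 CPM. It was at least 178-fold higher than WT, or at least 71.7-fold without Dnmt3b KO 12 and 105.5-fold without WT 7. The testis cytochrome c gene Cyct was at least 88.4-fold higher, 57.1-fold without Dnmt3b KO 12 and 52.4-fold without WT 7. Tuba3a was at least 46.8-fold higher, or 27.8-fold without WT 7. The Slc25a31 ratio was 123.9 without WT 7, 328.5 without WT 4 and 364 without WT 6.

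Fkbp6 had a pooled ratio of 80.4 (26.4 to 400) and the X-linked homeobox gene Rhox4d, 1 of several near-identical copies, a ratio of 104 (34.6 to 516). Without WT 7 these were 143 and 62.0, and Fkbp6 was at 32.5 without Dnmt3b KO 12. Rec114, a gene of meiotic recombination (log2 5.23), Ddx4, the germ cell helicase vasa (3.77), and Xlr3b (2.75) were also higher. Rhox4d was at 8.25 (from few UMIs), 18.5 and 23.1 CPM in the combined pair and libraries 11 and 12, and at 1.83, 2.77 and 0.708 CPM in Dnmt1-/- members. The difference between these knockouts was not tested. In members of libraries labelled Dnmt3b KO none of 24 imprinted, 14 primed pluripotency and 5 naive pluripotency genes was called. Tex19.1 (6.50), Sct (1.91) and Ifitm3 (1.42) were higher, and the summed trophoblast list was at 301 to 450 CPM in members of libraries 11 and 12 and at 376 to 813 CPM in their other cells. Their members also had 1499 to 1734 CPM of the yolk sac endoderm list (42.7 to 925 CPM in WT), 48.8 to 875 CPM of the cardiomyocyte list (19.7 to 49.8 CPM in WT) and 224 to 4881 CPM of the erythroid list (54.6 to 3066 CPM in WT). None of the 10, 6 and 6 genes of these lists was called, with medians of 2.37, 3.97 and 1.63 log2, and the part of such cells or their RNA in these results was not tested.

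The lower genes in members of libraries labelled Dnmt3b KO were Ahcy, Tmem47, Greb1l and Gm14226. Ahcy, which encodes the enzyme that clears S-adenosylhomocysteine, was 1.66 lower on the log2 scale (SE 0.26, edgeR adjusted p = 0.00045). It was at 4.13 (from few UMIs), 6.18 and 9.04 CPM in the combined pair and libraries 11 and 12 against 18.3 to 28.2 CPM in WT. It lies at chr2:155059310-155074497, on the chromosome of the targeted gene Dnmt3b at chr2:153649450-153687730. Tmem47 was 1.20 lower and Greb1l 1.09 lower. Greb1l overlapped WT, with 45.4 CPM at most against 44.0 CPM at least in WT, and 2 of the 3 libraries lay below all WT embryos. Gm14226 was at 0 in all these members and at 0 to 17.8 CPM in WT members, so the groups overlapped.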

How the data were processed

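Whole single embryos were profiled with the 10x Genomics 3' assay, and the authors deposited filtered UMI count matrices per library, made with Cell Ranger (version 3.1.0 in the file headers, 5.0.0 for Dnmt3b KO 12) against mm10. Only mouse genes, 31053 in every file, were used. How strand was used in counting is not given in the sources used here. The members and all gene lists were chosen with earlier results of these data known. Libraries follow the genotype labels, 1 embryo each, and p-values come from tests with embryos, not cells, as replicates.

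Counts were read with Python 3.11.15 and clustered with leidenalg 0.10.2 (17000 reference cells, 2000 variable genes, 40 components, 30 neighbours, resolution 2). Of 36 clusters 29 were named, in 18 classes. Doublet scores were computed per library, 0.8% per 1000 barcodes were marked, and none was removed. Shares of members were compared by exact permutation with NumPy 2.4.6, and their binomial intervals came from SciPy 1.17.1. Sums over the members of an embryo were tested with edgeR 4.0.16 in R 4.3.3 (TMM scaling, filterByExpr, quasi-likelihood test, Benjamini-Hochberg) with the 6 rule genes left out of the calls, and with DESeq2 1.42.0 as an alternative. They held 452417 to 14123404 UMIs in embryos with 10 or more members, and fewer in WT 5 and the combined pair. A design with 3 embryos of 10 or more members per group could not be met by the libraries labelled Dnmt3b KO, so 5 or more were used for them. CPM values are UMIs of a gene per 1000000 UMIs, and figures were drawn with matplotlib 3.10.9. Intervals are exact (Clopper-Pearson) and cover counting error only.

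Named genes were the rule genes, the targeted genes, genes of the lists, the 8 higher and 8 lower called genes with the smallest p per knockout, and the 12 leading genes in WT and in Dnmt1-/- embryos. Xist, Tsix and Y-linked genes were left out, as were placeholder symbols (Gm and Rik). Gm14226, Gm21887 and the X-linked Xlr3b in Dnmt3a-/- members were added after their values were seen, as were Nanog counts per cell and the anterior and caudal grouping. On simulated counts for the Dnmt1-/- comparison, 29.2% of 2-fold and 82.8% of 4-fold changes were recovered, with 4 false calls among 10897 genes of which 200 were changed. Values of some genes of the lists are not reported here. Gene positions are from GENCODE for mm10. Alternatives varied depth, detection, exclusion genes, quality, doublets, reference, tool, scaling, filters, covariates and embryos.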

Additional observations from a re-analysis of the deposited data

Results flagged for a closer look

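Of 28 groups of 4 to 10 embryos examined, 4 had 1 value far from the others, and chance gives about 1 in 20 such groups. The share of members in WT 7, 2.87%, was far above that of the other 6 WT embryos. Its median depth, 58709.5 UMIs per cell, was also the highest of the WT embryos. Its share of globin-rich cells, 0.693%, was the lowest of them, while WT 1 and WT 2, with the lowest shares of members, held 18.3 and 16.8%. The parts of depth and of embryo stage in the share of members were not tested. Asz1 was at 0.165 CPM in WT 7 members, from 1 UMI, and at 0 in the other WT embryos tested. Csnk2a2 was at 146.6 CPM in WT 3 members, below the 168.3 to 172.2 CPM of the others. Ddx4 was at 1.57 CPM in WT 6 members, above the 0.824 to 0.941 CPM of the others.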

How the results depend on the processing

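On the log2 scale the Dnmt1-/- difference in share was 4.17 after thinning to 3000 UMIs and 5.69 with 2 or more UMIs of both genes (exact permutation, adjusted p = 0.025 in both). The thinned value is not read as a change, since WT embryos held 0.045 to 1.30 expected members each. Leaving out 1 embryo gave 3.35 to 4.37 for Dnmt1-/-, -2.37 to -1.35 for Dnmt3a-/- and -1.49 to 0.45 for libraries labelled Dnmt3b KO, which turned to 0.018 without WT 7 and 0.45 without the combined pair. With a replicate block, added after seeing the data, the differences were 5.60 for Dnmt1-/- and 1.38, turned in sign, for Dnmt3a-/- over 2 pairs. The label numbers were not taken to pair embryos, since too few pairs or too weak a correlation was found: deviations from group means correlated at 0.15, -0.087 and -0.39 for Dnmt1-/- and at 0.51 and 0.14 for Dnmt3a-/- over 9402 genes. No paired analysis was possible for the gene tests because WT shared fewer than 2 label numbers with each knockout among the embryos tested. Of these share settings 18 of 20, 20 of 21 and 20 of 22 kept direction and side of the threshold for Dnmt1-/-, Dnmt3a-/- and libraries labelled Dnmt3b KO.

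Genes called in Dnmt1-/- members numbered 901 with no low-count filter (351 of the 358 among them), 82 with the Y-linked covariate, 72 with thinned sums, of which fewer genes (6584) were tested, and 219 to 411 when 1 embryo was left out. With WT and Dnmt1-/- alone in the fit, added after seeing the data, 482 were called. In Dnmt3a-/- members DESeq2 called 17, no filter 131, the reference covariate 2, thinned sums 1, and 0 to 6 were called with 1 embryo left out. In members of libraries labelled Dnmt3b KO 28 to 80 were called with 1 embryo left out. The cause of these changes was not tested. Of 300 values of the 16 named Dnmt1-/- genes 299 kept direction and call, and Noct lost its call with the Y-linked covariate (2.10). These genes were chosen for the smallest p in the main fit, so this count does not measure how stable the calls were. Of all 358 calls, 76 were kept with the Y-linked covariate and 60 with thinned sums. Gene tests on members with 2 or more UMIs of both genes were not run, since too few embryos remained. Without doublets, or with 25 or more members, Dnmt3a-/- could not be tested.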
